A study of Homo sapiens with 24 samples.

Results

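CDCP1, a cell-surface glycoprotein, was described together with 7 genes of the Src kinase pathway in which its protein works. The 8 genes were CDCP1, SRC, YES1, FYN, LYN, PRKCD, CSK and ST14, out of 20046 genes named on the array. They were measured by 17 of 47323 probes: 4 for CDCP1, 4 for FYN, 3 for SRC, 2 for PRKCD and 1 each for YES1, LYN, CSK and ST14. CDCP1 was chosen by its large rise on several probes in HT1080 knockout clones, so its values in HT1080 are given as a description, with no test. The other 7 genes were chosen for their place in the pathway. All probes of each gene are given, since the choice was by gene and not by probe.

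CDCP1 spans the cell membrane and carries extracellular CUB domains. Src family kinases phosphorylate tyrosines in its short cytoplasmic tail, and the phosphorylated tail then binds protein kinase C delta, which PRKCD encodes. SRC, YES1, FYN and LYN are Src family kinases, held inactive by the kinase CSK, which phosphorylates a tyrosine near their C terminus. ST14 encodes matriptase, a membrane serine protease that can cut the extracellular part of CDCP1. CDCP1 is known from carcinoma cells, where the phosphorylated protein accompanies loss of adhesion and spread.

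Total RNA of clones knocked out for Rap1 (TERF2IP) was compared with that of wild-type clones on Illumina expression arrays. Rap1 belongs to shelterin, the complex that covers telomeres, and the clones had been made with TALENs, nucleases designed to cut a chosen DNA sequence. HT1080, a fibrosarcoma line, had knockout clones 8 and 21 and wild-type clones 2 and 9. HCT116, a colorectal carcinoma line, had clones 10, 21 and 28 labelled knockout and clones 15, 20 and 23 labelled wild type. A clone descends from a single cell, so with few clones the genotype and other differences between clones cannot be told apart. Each clone had 2 arrays, which were averaged, and the clone was the replicate. The labels give no treatment, and nothing in them tells whether both arrays of a clone share a culture.

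Every value below is a log2 difference of a probe from its median over the arrays of the same line. The files hold no levels, so neither the abundance of CDCP1 nor that of the kinases can be given, and the origin of the lines could not be checked with marker genes. TERF2IP, the targeted gene, averaged -1.74 and -1.15 in HT1080 knockout clones 8 and 21, against 1.19 and 1.13 in wild-type clones 2 and 9. In HCT116 it averaged -0.22, -0.53 and 0.028 in the clones labelled knockout 10, 21 and 28, against 0.094, -0.27 and 1.33 in the clones labelled wild type 15, 20 and 23. The labelled groups of HCT116 thus overlapped for the targeted gene, which has 1 probe here, and only wild-type clone 23 stood well apart. Results in HCT116 are therefore given by clone as labelled, and differences of the 8 genes are also given with clones left out.

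The region around the start of CDCP1 is shown because 1 of its probes had the largest rise of all probes in HT1080 knockout clones. The window lies on the minus strand of assembly GRCh38.p14 at chr3:45146329-45146628. It holds 250 bases before and 50 bases after the start listed for this promoter. RefSeq puts the first base of the gene at 45146482, which lies within the 250 bases before that start. The capitals mark GC boxes (GGGCGG, read on both strands), the short motif bound by Sp1-like factors.
CDCP1 promoter: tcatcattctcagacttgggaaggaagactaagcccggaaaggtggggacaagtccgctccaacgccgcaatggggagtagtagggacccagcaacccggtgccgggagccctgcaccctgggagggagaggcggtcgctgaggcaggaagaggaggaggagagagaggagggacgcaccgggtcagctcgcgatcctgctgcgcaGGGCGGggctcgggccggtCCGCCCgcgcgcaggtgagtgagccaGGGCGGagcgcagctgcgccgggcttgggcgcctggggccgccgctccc
The 3 GC boxes began at -44, -25 and 1, counted from the listed promoter start as 0, with that at -25 on the opposite strand. All of them lie inside the RefSeq span of the gene. A GC box was present in 45% of 35116 promoters of the same length. The CDCP1 promoter was 70.3% G and C, above 80.5% of promoters, and held 27 CpG dinucleotides, where the median promoter held 14. The ETS core GGAA occurred 4 times without overlapping a GC box, and 95.5% of promoters held it. The letters of the hypoxia core (ACGTG or GCGTG, in 48.4% of promoters), the AP-1 motif (TGANTCA, 7.71%), TATAAA (11.5%) and the serum response box (1.29%) were not in this window on either strand. The arrays measured transcripts and not this region, so the motifs are a description of the sequence.

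In HT1080, all 4 CDCP1 probes lay higher in every knockout array than in any wild-type array. Probe ILMN_1724941 measured, on its arrays, 1.66 and 1.72 for knockout clone 8 and 1.99 and 2.00 for knockout clone 21, against -1.73 and -1.66 for wild-type clone 2 and -1.93 and -1.92 for wild-type clone 9. The knockout clones sat close together at the top and the wild-type clones close together at the bottom. The difference was 3.65 ± 0.14 (SE of the limma fit, n = 2 and 2 clones), or 12.6-fold, the largest rise of all 47323 probes in HT1080. This probe is annotated to a different CDCP1 transcript record from the other 3. In bulk RNA, more cells with the transcript and more transcript per cell cannot be told apart.

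Probe ILMN_2341611 measured 1.39 and 0.999 for knockout clone 8 and 1.71 and 1.69 for knockout clone 21, against -1.32 and -1.24 for wild-type clone 2 and -1.21 and -0.999 for wild-type clone 9. The groups were again far apart, by 2.00 between the lowest knockout and the highest wild-type array. Its difference of 2.64 ± 0.18 (SE, n = 2 and 2), 6.24-fold, was the third largest rise. Probe ILMN_1688670 measured 0.90 and 0.77 for knockout clone 8 and 1.41 and 1.41 for knockout clone 21, against -0.97 and -1.03 for wild-type clone 2 and -1.08 and -0.77 for wild-type clone 9. Clone 21 was the higher knockout clone here too. The difference was 2.09 ± 0.19 (SE, n = 2 and 2), 4.24-fold, ranking 6 among rises.

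Probe ILMN_1708167 separated the groups least. It measured 0.31 and 0.28 for knockout clone 8 and 1.37 and 1.40 for knockout clone 21, against -0.70 and -0.30 for wild-type clone 2 and -0.57 and -0.28 for wild-type clone 9. Knockout clone 8 stood nearer to the wild-type clones than to knockout clone 21, and the gap between the nearest arrays of the groups was 0.56. The difference of 1.30 ± 0.34 (SE, n = 2 and 2), 2.46-fold, was 35.6% of that of the leading probe, while the middle probes reached 72.3% and 57.1% of it. Knockout clones lay above wild-type clones for 11.7% of all probes, a share given for scale only. Without knockout clone 21 the difference of this probe was 0.76, and without knockout clone 8 it was 1.85.

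**Figure D1:**
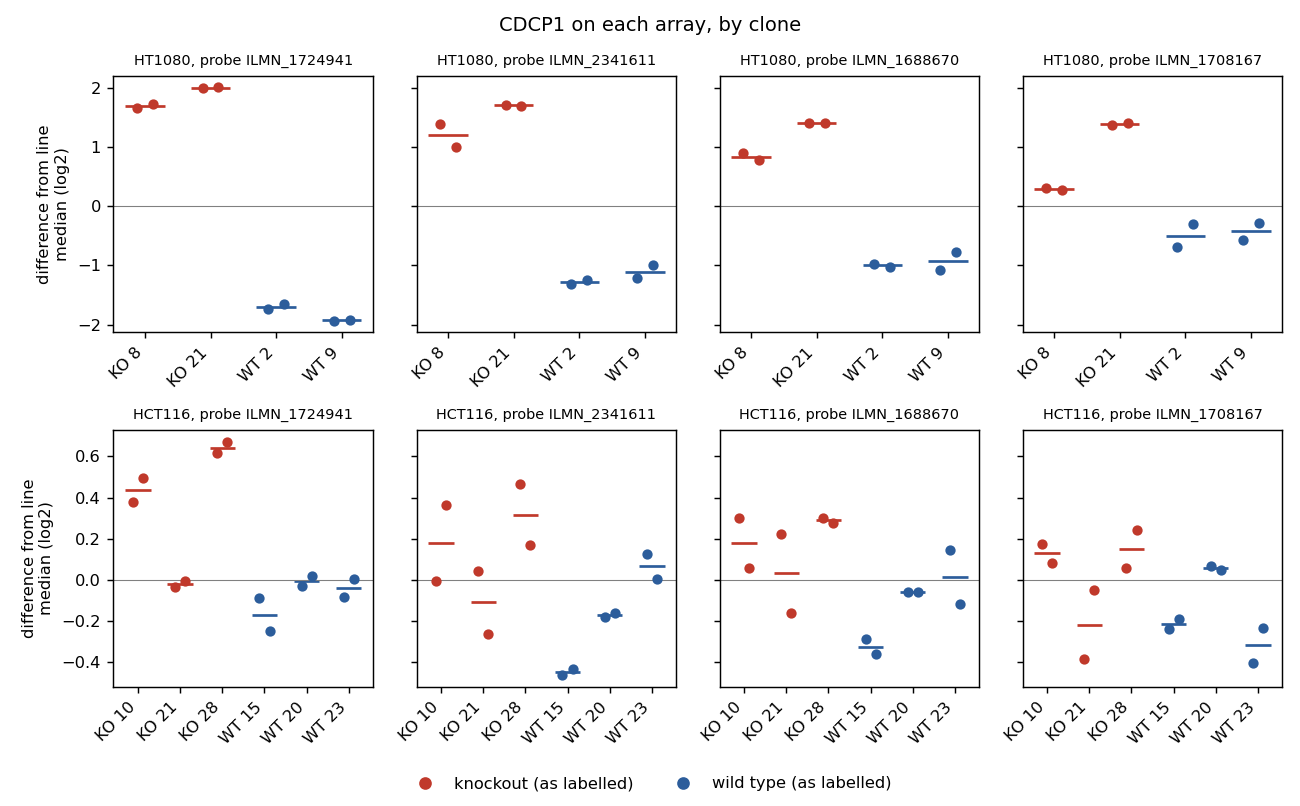
CDCP1 on each array, as the log2 difference from the line's median, with 1 panel per probe, HT1080 in the upper row and HCT116 in the lower row, on different vertical scales. Points are arrays (knockout red, wild type blue) and lines are clone means. For ILMN_1724941 the HT1080 knockout arrays lie between 1.66 and 2.00 and the wild-type arrays between -1.93 and -1.66, while in HCT116 knockout clone 21 sits among the wild-type clones.

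The knockout clones of HT1080 differed from each other more than the wild-type clones did. Clone 21 exceeded clone 8 by 0.31, 0.51, 0.57 and 1.09 on probes ILMN_1724941, ILMN_2341611, ILMN_1688670 and ILMN_1708167. Only 7.73%, 2.27%, 1.76% and 0.378% of all probes differed by more between these knockout clones. Wild-type clone 9 differed from clone 2 by -0.23, 0.18, 0.074 and 0.070 on the same probes. Averaged over the 4 probes, CDCP1 stood at 1.00 in knockout clone 8 and 1.62 in knockout clone 21, against -1.12 in wild-type clone 2 and -1.10 for clone 9. The means were 1.31 ± 0.44 in knockout and -1.11 ± 0.016 in wild-type clones (SD, n = 2 each), a difference of 2.42 or 5.35-fold. The order of clones was thus knockout 21, knockout 8 and then the wild-type clones, whose means differed by far less than the SD of the knockout clones. The mean of 11 probes of 7 mesenchymal markers was also highest in knockout clone 21, at 0.44, against -0.21 in knockout clone 8, -0.11 in wild-type clone 2 and 0.065 for wild-type clone 9. The part of these markers in the CDCP1 difference between the knockout clones was not tested.

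In HCT116 the 4 CDCP1 probes were all higher on average in the clones labelled knockout, by 0.18 to 0.42, and none passed the test. These values were not used to choose the gene. An unadjusted p under 0.05 (limma) was found for 2 of the 4 probes, which measure 1 gene, and for 8.32% of all probes. Probe ILMN_1724941 measured 0.38 and 0.49 for knockout clone 10, -0.032 and -0.0065 for clone 21 and 0.62 and 0.67 for clone 28. The wild-type arrays gave -0.089 and -0.25 for clone 15, -0.031 and 0.021 for clone 20 and -0.084 and 0.0065 for clone 23. Knockout clones 10 and 28 stood above all wild-type arrays, and knockout clone 21 lay among them. The knockout clones exceeded the wild-type clones by 0.42 ± 0.15 (SE over 3 and 3 clones; limma, adjusted p = 0.591).

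Probe ILMN_1688670 gave clone means of 0.18, 0.032 and 0.29 in knockout clones 10, 21 and 28, against -0.32, -0.060 and 0.013 in wild-type clones 15, 20 and 23. The clone means of the groups did not overlap, which held in this direction for 13.1% of all probes. The arrays did overlap, from -0.16 to 0.30 in knockout and from -0.36 to 0.14 in wild-type clones, and the difference of 0.29 ± 0.11 (SE, n = 3 and 3) did not pass (limma, adjusted p = 0.591). Probe ILMN_2341611 gave 0.18, -0.11 and 0.32 in the knockout clones, against -0.45, -0.17 and 0.066 in the wild-type clones, a difference of 0.31 ± 0.14. Probe ILMN_1708167 gave 0.13, -0.22 and 0.15 in the knockout clones, against -0.21, 0.058 and -0.32 in the wild-type clones, a difference of 0.18 ± 0.13. The groups overlapped on both of these probes.

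Averaged over the 4 probes, HCT116 knockout clones 10, 21 and 28 stood at 0.23, -0.078 and 0.35, against -0.29, -0.044 and -0.070 in wild-type clones 15, 20 and 23. The means were 0.17 ± 0.22 and -0.13 ± 0.13 (SD, n = 3 each), a difference of 0.30 or 1.23-fold, which did not pass an exact two-sided permutation test (p = 0.3, where 0.1 is the smallest p possible). In this order of clones, wild-type clones 20 and 23 and knockout clone 21 did not differ beyond the spread of the wild-type clones. Without each clone in turn the difference ran from 0.21 (without knockout clone 28) to 0.42 (without knockout clone 21). Without knockout clone 21 probe ILMN_1724941 passed the test, with 0.61 ± 0.10 (limma, n = 2 and 3 clones, adjusted p = 0.0438), when 164 probes (0.347%) passed in all. With all 6 clones, 15 of 47323 probes (0.0317%) passed in HCT116 and none belonged to the 8 genes.

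The lines are set side by side, since the HT1080 rise chose the gene. The change of ILMN_1724941 was 3.65 in HT1080 and 0.42 in HCT116, that of ILMN_2341611 was 2.64 and 0.31, that of ILMN_1688670 was 2.09 and 0.29 and that of ILMN_1708167 was 1.30 and 0.18. The order of the probes by size was the same in both lines. In ARPE-19, a retinal pigment epithelium line that has 1 array per clone and was not used in the fits, CDCP1 values ran from -0.18 to 0.32 in knockout clones and from -0.45 to 0.13 in wild-type cultures, over all 4 probes. Taken by probe, the knockout arrays lay above the wild-type arrays on ILMN_1688670 and ILMN_1708167, and overlapped with them on the others. The share of all probes with such a split in ARPE-19 was not counted.

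**Figure D2:**
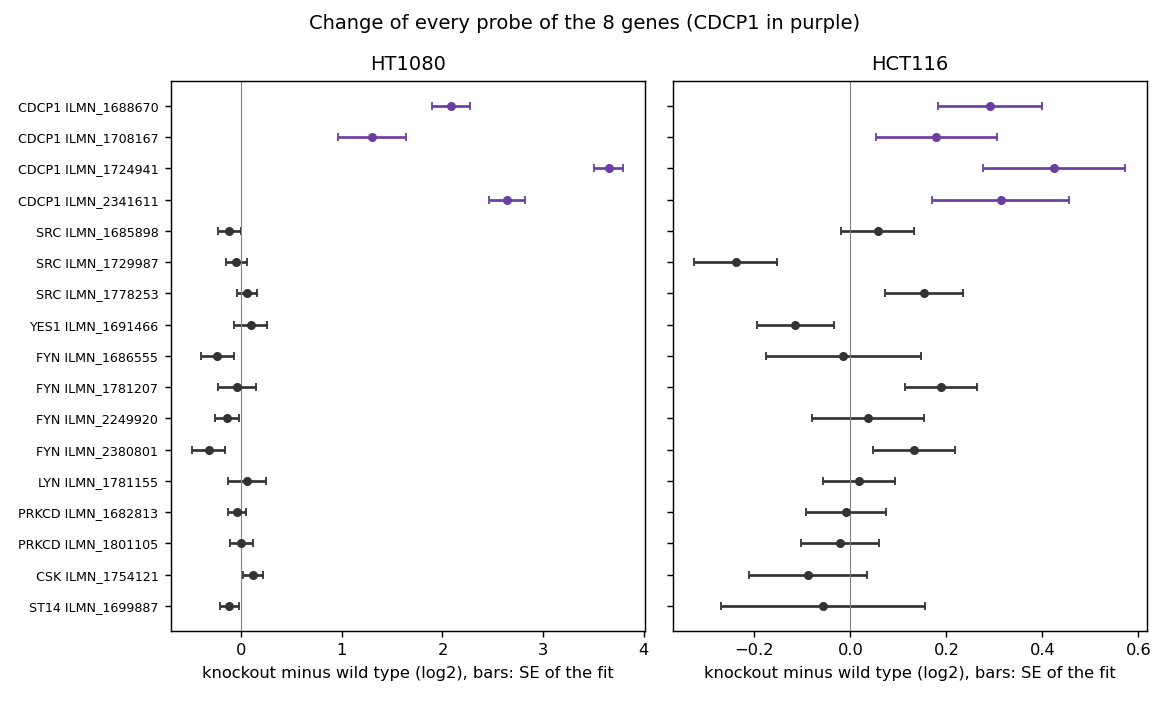
Knockout minus wild type in log2 units for each of the 17 probes of the 8 genes, with HT1080 on the left and HCT116 on the right, on different horizontal scales. Points are the differences and bars the SE of the limma fit. CDCP1 (purple) lies between 1.30 and 3.65 in HT1080, where the other probes lie between -0.32 and 0.11.

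The 13 probes of the other 7 genes gave no call in either line, where 2 of 47323 probes passed adjusted p 0.05 in HT1080 (0.00423%) and 15 in HCT116. Their differences in HT1080 ran from -0.32 to 0.11, with 4 higher and 9 lower in knockout clones and a median of -0.040, where the median of all probes was -0.037. None had an unadjusted p under 0.05, which 5.08% of all probes had, and the lowest adjusted p was 0.864 (limma, n = 2 and 2 clones). In HCT116 they ran from -0.24 to 0.19, with 6 higher and 7 lower and a median of -0.010, where the median of all probes was 0.056. There 2 of the 13 had an unadjusted p under 0.05, as did 8.32% of all probes, and the lowest adjusted p was 0.591. With each clone left out in turn, 6 of the 13 differences changed sign in HT1080 and 7 in HCT116.

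The kinase genes come first. SRC, the founding member of the family, had differences of -0.12 ± 0.11, -0.050 ± 0.11 and 0.055 ± 0.10 in HT1080 on probes ILMN_1685898, ILMN_1729987 and ILMN_1778253 (SE, n = 2 and 2). In HCT116 its probes disagreed. ILMN_1729987 measured -0.13 and 0.025 for knockout clone 10, -0.062 and -0.071 for clone 21 and -0.19 and -0.28 for clone 28, against 0.17 and 0.23 for wild-type clone 15, -0.025 and 0.077 for clone 20 and 0.18 and 0.097 for clone 23. The clone means did not overlap, with the knockout clones lower, as for 2.58% of all probes. Its difference was -0.24 ± 0.09 (SE, n = 3 and 3; limma, adjusted p = 0.591), and -0.29 to -0.18 with each clone left out. ILMN_1778253 gave clone means of 0.19, 0.018 and 0.080 in knockout clones 10, 21 and 28, against 0.0064, -0.13 and -0.055 in wild-type clones 15, 20 and 23. On that probe the knockout clones were the higher ones, by 0.15 ± 0.08 (0.11 to 0.19 with each clone left out), and ILMN_1685898 differed by 0.057 ± 0.08 with overlapping clones.

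FYN, a kinase of T-cell and cell-adhesion signalling, differed by -0.32 ± 0.16, -0.24 ± 0.16, -0.14 ± 0.12 and -0.040 ± 0.19 in HT1080 on probes ILMN_2380801, ILMN_1686555, ILMN_2249920 and ILMN_1781207. On ILMN_2380801 knockout clone 8 measured 0.0064 and -0.0064 and clone 21 -0.37 on both arrays, against 0.079 and -0.071 for wild-type clone 2 and 0.21 and 0.34 for clone 9. Knockout clone 21 was low and wild-type clone 9 high, and knockout clone 8 could not be separated from wild-type clone 2. All 4 FYN probes were higher in wild-type clone 9 than in clone 2, by 0.38, 0.56, 0.24 and 0.27 for ILMN_1686555, ILMN_1781207, ILMN_2249920 and ILMN_2380801. The median size of this difference was 0.12 over all probes. Without wild-type clone 9 the genotype difference of ILMN_1686555 was -0.045 and that of ILMN_1781207 was 0.24, higher in knockout clones. In HCT116, ILMN_1781207 gave 0.088, 0.055 and 0.046 in knockout clones 10, 21 and 28, against -0.093, -0.079 and -0.21 in wild-type clones 15, 20 and 23, without overlap. Its difference was 0.19 ± 0.08 (limma, adjusted p = 0.591), and 0.15 to 0.21 with each clone left out. The other 3 FYN probes differed by -0.014 to 0.13 with overlapping clones, and without knockout clone 10 ILMN_1686555 and ILMN_2249920 stood at -0.19 and -0.087, and without knockout clone 21 at 0.12 and 0.13.

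YES1, a close relative of SRC, and LYN, a kinase of blood and epithelial cells, differed by less between genotypes than between the HT1080 wild-type clones. YES1 measured 0.030 and -0.042 for knockout clone 8 and -0.019 and 0.019 for knockout clone 21, against -0.36 and -0.30 for wild-type clone 2 and 0.11 and 0.16 for wild-type clone 9. The wild-type clones enclosed the knockout clones. The genotypes differed by 0.093 ± 0.16 (SE, n = 2 and 2), while wild-type clone 9 exceeded clone 2 by 0.46, a larger gap than for all but 6.14% of probes. LYN measured 0.051 and 0.13 for knockout clone 8 and -0.051 and -0.054 for knockout clone 21, against 0.21 and 0.25 for wild-type clone 2 and -0.22 and -0.39 for wild-type clone 9. Again the knockout clones lay between the wild-type clones, whose order was the opposite of that for YES1. The genotypes differed by 0.058 ± 0.19, and wild-type clone 9 lay 0.54 below clone 2 (a difference of -0.54, exceeded in size by 4.4% of probes). In HCT116 LYN varied little, with a range of 0.11 over the 6 clones, narrower than for 98.7% of probes, and a genotype difference of 0.018 ± 0.07. YES1 differed there by -0.11 ± 0.08, and by -0.15 to -0.074 with each clone left out. In HT1080 both genes changed sign with 1 clone left out, YES1 to -0.14 without wild-type clone 2 and LYN to -0.21 without wild-type clone 9.

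The spread of YES1 between clones was not shared by repeat arrays of a clone. Its SD between clones of a genotype in HT1080 was 0.23, against 0.039 between arrays of a clone, a ratio of 5.96, and LYN had a ratio of 4.15. The median ratio over all probes was 0.82 in HT1080. Genotype differences of the size of 0.1 in these kinases could not be detected against such spread with 2 clones per genotype.

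**Figure D3:**
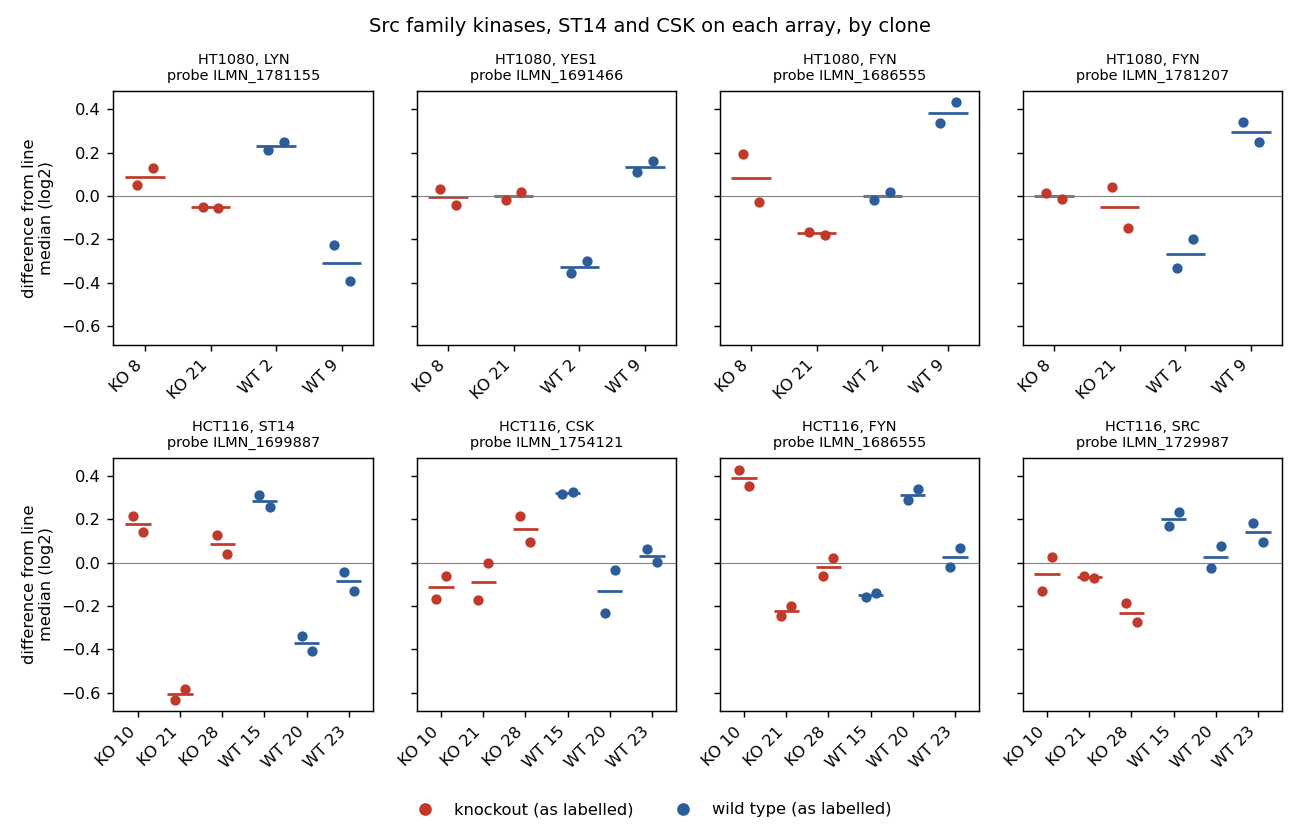
Src family kinases, ST14 and CSK on each array, as the log2 difference from the line's median. The upper row shows LYN, YES1 and 2 FYN probes in HT1080 and the lower row ST14, CSK, FYN and SRC in HCT116. Points are arrays (knockout red, wild type blue) and lines are clone means. The HT1080 wild-type clones lie on either side of the knockout clones for LYN (0.23 and -0.31) and YES1 (-0.33 and 0.14).

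CSK, the inhibitory kinase, averaged 0.16 and 0.0016 in HT1080 knockout clones 8 and 21, against -0.062 and -0.0041 in wild-type clones 2 and 9. These values did not overlap, as for 11.7% of all probes, but knockout clone 21 and wild-type clone 9 were nearly equal. The difference was 0.11 ± 0.10 (SE, n = 2 and 2). In HCT116 CSK averaged -0.11, -0.087 and 0.16 in knockout clones 10, 21 and 28, against 0.32, -0.13 and 0.033 in wild-type clones 15, 20 and 23, a difference of -0.088 ± 0.12. The highest value was that of wild-type clone 15, without which the difference was 0.035, and the groups overlapped. PRKCD, the kinase that binds phosphorylated CDCP1, differed by -0.0024 ± 0.11 and -0.039 ± 0.09 in HT1080 on its 2 probes, and by -0.021 ± 0.08 and -0.010 ± 0.08 in HCT116.

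ST14, the protease gene, differed by -0.12 ± 0.09 in HT1080. Its knockout clones 8 and 21 averaged 0 and -0.14, against 0.068 and 0.037 in wild-type clones 2 and 9, without overlap in a direction that 25.3% of all probes showed. In HCT116 ST14 measured 0.21 and 0.14 for knockout clone 10, -0.63 and -0.58 for clone 21 and 0.13 and 0.042 for clone 28, against 0.31 and 0.26 for wild-type clone 15, -0.34 and -0.41 for clone 20 and -0.042 and -0.13 for clone 23. Knockout clone 21 and wild-type clone 20 were low in otherwise overlapping groups, and the difference was -0.057 ± 0.21 (SE, n = 3 and 3). It changed sign to 0.19 without knockout clone 21, and was -0.21 without wild-type clone 20. The range over the 6 clones was 0.89, wider than for all but 2.17% of probes, and the SD between clones was 7.44 times that between arrays of a clone.

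The low clones for ST14 also had the lowest means over the epithelial markers, wild-type clone 20 more clearly than knockout clone 21. CDH1, the gene of E-cadherin, averaged 0.52, -0.84 and 0 in knockout clones 10, 21 and 28, against 0.063, -0.62 and -0.0022 in wild-type clones 15, 20 and 23. It is named here after its values were seen. The mean of 9 probes of 6 epithelial markers was 0.21, -0.17 and 0.033 in the same knockout clones, against 0.14, -0.37 and -0.070 in the wild-type clones. Of these 9 probes, 2 were lowest in knockout clone 21 and 6 for wild-type clone 20. CDH1 is among these markers and lay far below their mean in knockout clone 21. The part of epithelial character in the ST14 values was not tested.

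With both lines in 1 fit and the line as a fixed factor, no probe of the array passed (0 of 47323, 0%), although 4.52% had an unadjusted p under 0.05. Among the 13 probes other than CDCP1, 1 had such a p, SRC probe ILMN_1729987 with -0.16 ± 0.07 (limma, n = 5 and 5 clones). The test of whether a change differed between the lines was passed by 14 probes (0.0296%), with 9.83% at an unadjusted p under 0.05. None of the 14 was a probe of the other 7 genes. CDCP1 is not counted here, since its HT1080 values had chosen it. The nearest was FYN probe ILMN_2380801, whose HT1080 change was lower than its HCT116 change by 0.46 (-0.46 ± 0.18; limma, adjusted p = 0.487).

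Wider lists of the pathway were then counted, with 0 probes past the test in either direction and either line in all 11 lists. Of all probes, 18202 were higher and 29121 lower in HT1080 knockout clones, and 33223 were higher and 14100 lower in HCT116, and each list's counts and median are to be read against these. Of the Src family kinases, 10 of 11 were measured by 21 probes, 5 higher and 16 lower in HT1080 (median -0.040) and 17 higher and 4 lower in HCT116 (median 0.082). Besides the members, the lymphocyte kinase gene LCK differed by -0.21 ± 0.11 in HT1080 on ILMN_1699991 and by 0.23 ± 0.07 in HCT116 on ILMN_2277426. In each line its remaining probes differed by less, by -0.18 to -0.0015 in HT1080 and by 0.010 to 0.14 in HCT116. All 11 regulators of Src kinases were measured by 23 probes, 7 higher and 16 lower in HT1080 (median -0.060) and 17 and 6 in HCT116 (median 0.042). MATK, a kinase related to CSK, differed by -0.26 ± 0.09 in HT1080 on ILMN_2319000, while its other probes differed there by 0.10 and 0.098. PTPRA, a phosphatase that activates Src kinases, differed by -0.26 ± 0.09 in HT1080 and 0.13 ± 0.08 in HCT116 on different probes. The remaining PTPRA probes differed by -0.20 to -0.054 in HT1080 and by 0.024 to 0.096 in HCT116. PAG1, the membrane anchor of CSK, differed by 0.15 ± 0.08 in HCT116 on ILMN_1736806, and by 0.081 and -0.0068 on its other probes.

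Of the Src substrates and adhesion adaptors, 17 of 18 were measured by 44 probes, 22 higher and 22 lower in HT1080 (median -0.00021) and 25 and 19 in HCT116 (median 0.057). The adaptor gene DOK1 differed by 0.26 ± 0.10 in HT1080. CTNND1, the p120 catenin gene, differed there by -0.23 ± 0.09 on ILMN_2293511, and by -0.14 to 0.019 on its other probes. In HCT116 the transcription factor gene STAT3 differed by 0.22 ± 0.10 on ILMN_2410986, and by 0.13 and 0.11 on its other probes. There RAPGEF1 differed by 0.12 ± 0.07 on ILMN_1678799, and by 0.11 and -0.12 on its other probes. It encodes an exchange factor for the small GTPase also called Rap1. That GTPase is not the telomere protein encoded by TERF2IP. Of the protein kinase C genes, 8 of 9 were measured by 17 probes, 6 higher and 11 lower in HT1080 (median -0.0054) and 9 and 8 in HCT116 (median 0.024). PRKCA differed by -0.27 ± 0.14 and PRKCB by 0.088 ± 0.09 in HT1080, and PRKCB by 0.23 ± 0.08 in HCT116.

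Of the proteases and inhibitors of CDCP1 cleavage, listed together with the urokinase receptor gene PLAUR, 9 of 10 genes were measured by 14 probes. In HT1080, 4 were higher and 10 lower (median -0.094), and the knockout clones lay below the wild-type clones for 42.9% of them, against 25.3% of all probes. In HCT116, 11 were higher and 3 lower (median 0.13), and the knockout clones lay above the wild-type clones for 35.7%, against 13.1% of all probes. PLAUR, a receptor rather than a protease or inhibitor, had 3 of the 14 probes. All 3 were among the 5 probes higher without overlap in HCT116. On ILMN_2374340 PLAUR averaged 0.87, 0.13 and 0.56 in HCT116 knockout clones 10, 21 and 28, against -0.50, -0.38 and -0.16 in wild-type clones 15, 20 and 23. Every knockout clone was above every wild-type clone, with clone 21 lowest of the knockouts. The difference was 0.87 ± 0.17 (limma, n = 3 and 3, adjusted p = 0.314; 0.69 to 1.06 with each clone left out), and it was 0.66 ± 0.15 on ILMN_2408543 (adjusted p = 0.454). In HT1080 ILMN_2374340 differed by -0.27 ± 0.14, and HPN, the protease hepsin, by -0.27 ± 0.10.

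All 11 partners of CDCP1 were measured by 22 probes, 11 higher and 11 lower in HT1080 (median -0.011) and 15 and 7 in HCT116 (median 0.052). AXL, a receptor tyrosine kinase, averaged -0.70, -0.28 and -0.15 on ILMN_1701877 in HCT116 knockout clones 10, 21 and 28, against 0.32, 0.30 and 0.21 in wild-type clones 15, 20 and 23. The groups did not overlap. The AXL differences were -0.65 ± 0.13 (limma, adjusted p = 0.317; -0.77 to -0.49 with each clone left out) and -0.50 ± 0.12 (adjusted p = 0.456) on its 2 named probes, and 0.0097 and 0.0071 in HT1080. SDC4, the proteoglycan syndecan 4, averaged 0.94, -0.19 and 0.62 in HCT116 knockout clones 10, 21 and 28, against 0.19, -0.17 and -0.23 in wild-type clones 15, 20 and 23. Knockout clones 10 and 28 were high and clone 21 lay among the wild-type clones. The share of all probes with this order was not counted. The SDC4 difference was 0.53 ± 0.24 and ran from 0.29 to 0.85 with each clone left out, and in HT1080 SDC4 differed by -0.27 ± 0.11. CDH2, the N-cadherin gene, differed by 0.42 ± 0.15 in HT1080, with 0.067 and 0.41 in knockout clones 8 and 21, against -0.30 and -0.063 in wild-type clones 2 and 9 (limma, adjusted p = 0.864).

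Output genes of the Ras-ERK pathway were measured for 15 of 15 genes by 23 probes, 9 higher and 14 lower in HT1080 (median -0.075) and 13 and 10 in HCT116 (median 0.024). PHLDA1 differed by -0.96 ± 0.34 in HT1080 on ILMN_3251550, where wild-type clone 9 stood at 1.14 (-0.44 without that clone), and by 0.11 ± 0.09 on its other probe. The AP-1 gene FOSL1 differed by 0.33 ± 0.10 in HT1080. The phosphatase genes DUSP5 and DUSP4 differed by -0.33 ± 0.10 and 0.27 ± 0.11 in HCT116. Hypoxia factors and ZKSCAN3, known as regulators of CDCP1 in other cells, were measured for all 5 genes by 9 probes, 2 higher and 7 lower in HT1080 (median -0.077) and 6 and 3 in HCT116 (median 0.030). ZKSCAN3 differed by 0.17 ± 0.09 and HIF1A by -0.13 ± 0.10 in HT1080, and EPAS1 by -0.60 ± 0.36 in HT1080, where wild-type clone 2 alone was high at 1.11 (-0.023 without that clone), and by 0.65 ± 0.18 in HCT116 (limma, adjusted p = 0.554). Epithelial markers (6 of 6 genes) were 3 higher and 6 lower in HT1080 and 8 and 1 in HCT116, with CLDN4 at -0.33 ± 0.15 in HT1080. KRT18 differed by -0.20 ± 0.09 in HT1080 on ILMN_1730848 and by 0.25 ± 0.10 in HCT116 on ILMN_1803408. In HT1080 ILMN_1803408 differed by -0.092, and in HCT116 ILMN_1730848 differed by 0.24. Mesenchymal markers (7 of 7) were 6 higher and 5 lower in each line, with VIM, the vimentin gene, at -0.11 ± 0.09 in HT1080.

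None of the neighbours of CDCP1 on the chromosome passed the test in either line. All 10 protein-coding genes, 5 on each side, were measured by 12 probes, 3 higher and 9 lower in HT1080 (median -0.036) and 8 and 4 in HCT116 (median 0.059). The nearest gene on one side, TMEM158, averaged -0.13 and -0.19 in HT1080 knockout clones 8 and 21, against 0.12 and 0.26 in wild-type clones 2 and 9. It was thus lower in the knockout clones, the direction opposite to CDCP1, by -0.35 ± 0.10 (limma, n = 2 and 2, adjusted p = 0.864). The nearest gene on the other side, CLEC3B, differed by -0.19 and TMEM42 by -0.25 ± 0.12. The remaining neighbours lay between -0.039 and 0.18. In HCT116 TMEM158 averaged 0.52, -0.29 and 1.10 in knockout clones 10, 21 and 28, against -0.38, -0.046 and 0.074 in wild-type clones 15, 20 and 23. Clones 10 and 28 were high and clone 21 was not, an order whose share over all probes was not counted. The difference was 0.56 ± 0.28 (limma, n = 3 and 3, adjusted p = 0.600; 0.23 to 0.93 with each clone left out).

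**Figure D4:**
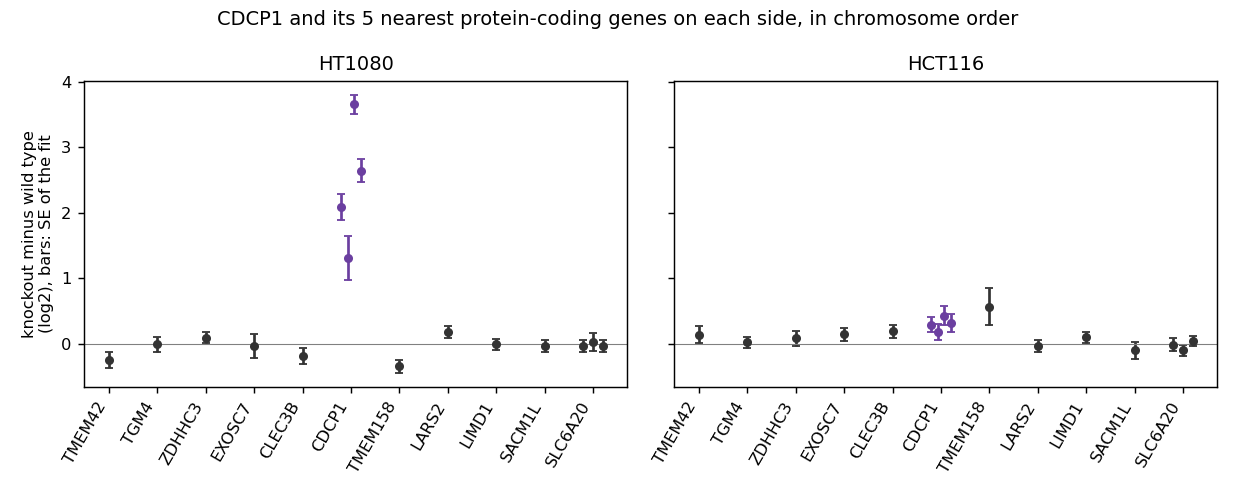
Knockout minus wild type in log2 units for CDCP1 (purple) and its 5 nearest measured protein-coding genes on each side, in chromosome order, with HT1080 on the left and HCT116 on the right. Points are probes and bars the SE of the limma fit. In HT1080 CDCP1 lies at 1.30 to 3.65 and its neighbours at -0.35 to 0.18.

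The genes whose clone values ran most like CDCP1 were ranked by Pearson correlation with the mean of its 4 probes over the 10 clones of both lines. This is a description with no test, and the wide HT1080 split between genotypes sets most of each correlation. CYP2J2, an arachidonic acid epoxygenase, was the most alike (r = 0.972), with changes of 1.90 ± 0.16 in HT1080 and 0.32 ± 0.14 in HCT116. Its correlation over the 6 HCT116 clones alone was 0.946. These clones were part of the ranking, so this value is no separate check. PTGR1, a prostaglandin reductase, followed with 0.966 and 0.963 on its probes and HT1080 changes of 2.07 ± 0.09 and 1.81 ± 0.10. Its HCT116 correlations were 0.492 and 0.410. C3orf70 (0.959 and 0.936), the DNA repair gene MGMT (0.958, HT1080 change 1.83 ± 0.31), FGF12 (0.957), RAPGEF5 (0.952, change 1.46 ± 0.11), GAGE12D (0.945) and ODF2 (0.940) completed the list. RAPGEF5 and FGF12 had correlations of only 0.043 and 0.095 within HCT116. C3orf70 gave 0.0043 there on ILMN_2135339 and 0.697 on ILMN_1660519.

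The most opposite genes were SIGLEC14, a sialic acid-binding receptor (r = -0.970, HT1080 change -0.99 ± 0.09), and the thymosin gene TMSB15B (-0.955, change -2.50 ± 0.21). TUBGCP5 (-0.951), NRCAM (-0.949) and AFF2 (-0.946) followed, with HT1080 changes of -0.45, -0.62 and -0.62. In all, 20 of 30109 probes with a gene symbol had r above 0.9 and 25 had r below -0.9. Probes of 1 gene did not always share the pattern. The other FGF12 probes gave 0.895, 0.314 and -0.078, the other ODF2 probes -0.203 and -0.611 and the other TMSB15B probes -0.593, -0.657 and -0.092. Among the other members the correlation with CDCP1 over the 10 clones ran from -0.625 for FYN probe ILMN_2380801 to 0.317 for SRC probe ILMN_1778253.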

How the data were processed

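Per the labels' protocols, RNeasy columns (QIAGEN) and a MessageAmp kit (Ambion) were used for the RNA. The authors deposited log-scale values, taken here as log2, in which every probe has a median of 0 within its line (largest departure 5e-07). The sources used here give neither the log base nor the background correction, normalization or software. Precision is limited by the number of clones. In the main fits, p-values rest on the spread between clones, with each probe's variance shrunk by limma towards a value drawn from all probes. The SEs printed are moderated in this way and can differ from the observed spread. For CDCP1 probe ILMN_1708167 in HT1080, the SD between clones of a genotype was 0.55 and the SE was 0.34.

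The arrays of a clone were averaged. Knockout was compared with wild type with limma 3.58.1 in R 4.3.3 (lmFit and eBayes, two-sided), per probe over all 47323 probes with Benjamini-Hochberg adjustment at 0.05, with no filter, within each line, over both lines, and as the genotype-by-line interaction. The annotation gave 30113 probes 1 gene symbol, updated through RefSeq (GRCh38.p14). Promoters were scanned in Python 3.11.15.

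The members and gene lists were chosen with earlier results of these data known. Named genes were the 8 members and TERF2IP, in each list any gene past the test and, per line, up to 2 probes with the largest change among those whose clones did not overlap, and the 10 probes most and 5 least like CDCP1. Alternatives were single arrays, a replicate block, other centring, probe choice, a robust prior and leaving out clones. The 4 ARPE-19 arrays were not used in the fits.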

Additional observations from a re-analysis of the deposited data

How the results depend on the processing

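With the 4 probes averaged, the CDCP1 difference in HT1080 was 2.42 and ran from 2.11 to 2.73 on leaving out each clone. It was 3.65 with the most variable probe alone. In HCT116 it was 0.30 and ran from 0.21 to 0.42. No alternative turned its sign in either line. The 13 probes of the other 7 genes gave 0 calls under every alternative run, while 6 of them changed sign in HT1080 and 7 in HCT116 on leaving out a clone. All calls among the 17 probes were of CDCP1, and those in HT1080, over both lines and for the difference use the values that chose the gene, so these counts are no test of it. In HT1080, where 1 was called, 3 were called on first arrays, 2 on second arrays, 0 with each gene's probes averaged, and 0 (without knockout clone 8) to 3 (without wild-type clone 2 or 9) on leaving out a clone. In HCT116, where 0 were called, 0 to 1 were called on leaving out a clone, 1 without knockout clone 21. For the difference between the lines, where 3 were called, 1 was called with either choice of 1 value per gene, and 2 to 4 on leaving out a clone. The array numbers do not pair samples: differences between first and second arrays correlated from -0.0424 to 0.121 between HT1080 clones and from -0.157 to 0.145 between HCT116 clones. With the array number as a replicate block and the clone as a random block, 3 CDCP1 probes were called in HT1080, 0 in HCT116, 3 over both lines, where 0 were called before, and 4 for the difference. Over all probes these counts were 89, 221, 69 and 219, against 2, 15, 0 and 14. That fit took arrays as units, with 1 clone correlation for all probes (0.22 to 0.31 by comparison). Its calls therefore do not rest on the spread between clones alone. Calls over all probes in HT1080 were 12 on first and 9 on second arrays, 5 with a robust prior and 0 to 121 on leaving out a clone. In HCT116 they were 25 on first arrays, 8 with arrays centred on their median, 3 with named probes only or with the most variable probe, 0 with the mean of probes and 0 to 164 on leaving out a clone. Over both lines they were 0 to 1, and for the difference 9 with the mean of probes and 12 to 115 on leaving out a clone. Centred values hold no signal over background, so weak probes could not be set apart.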

Other observations

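In HCT116, several listed genes shared the order of CDCP1 among the clones labelled knockout, with clones 10 and 28 above clone 21. They were picked after their values were seen and are given as values only. The share of all probes with this order was not counted. EGFR, the epidermal growth factor receptor gene, averaged 0.23, 0.079 and 0.46 on ILMN_1798975 in knockout clones 10, 21 and 28, against -0.17, -0.065 and -0.11 in wild-type clones 15, 20 and 23. ITGB1, the integrin beta-1 gene, averaged 0.28, -0.017 and 0.37 on ILMN_1723467 in the knockout clones, against -0.0017, -0.036 and -0.092 in the wild-type clones. On that EGFR probe knockout clone 21 also lay above every wild-type clone. The other 3 probes of EGFR differed between the labelled genotypes by 0.051 to 0.082, and the other 3 of ITGB1 by 0.15 to 0.34. The median difference of all probes was 0.056. TERF2IP was lowest in knockout clone 21, at -0.53, and stood at -0.22 and 0.028 in knockout clones 10 and 28.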
